A study of Mus musculus with 3 samples.

Results

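The genes described here are 10 that set the balance between an epithelial and a mesenchymal cell state, followed in mouse mammary tumour cells: 5 transcription factors that drive epithelial-mesenchymal transition (EMT), Snai1, Snai2, Zeb1, Zeb2 and Twist1, and 5 epithelial gatekeepers, Grhl2, Ovol1, Elf3, Esrp1 and Rbm47. They were chosen by name from the 20605 genes of the deposited gene annotation, and all 10 passed the filter on low counts. The cells came from C3(1)-Tag mice, FVB animals that carry the SV40 large T antigen under the C3(1) promoter and develop mammary tumours, and were profiled by single-cell RNA sequencing (10x 3' chemistry, unique molecular identifiers or UMIs). Freshly isolated tumour tissue of 4 mice aged 25 to 30 weeks (tumours of 20 mm) was plated in collagen I, the matrix of invasion, or in Matrigel, a basement membrane gel in which colonies form, in medium with 2.5 nM FGF2.

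Cells were harvested 12 h after plating (labelled day 0), on day 3 and on day 5, each day as 1 pool in which lipid-tagged barcodes (MULTI-seq) mark mouse and matrix. The cell annotation names the first pool D1, and it was taken as the day 0 harvest because the other pools carry days 3 and 5. The groups are therefore collagen day 0 (4 mice), day 3 (4 mice) and day 5 (3 mice), and Matrigel day 0 (4 mice), day 3 (4 mice) and day 5 (2 mice). Collagen gels were released with collagenase at 37 °C and Matrigel gels with EDTA on ice, so the matrix and the release step cannot be told apart, and neither can the day and the pool. Each pool also held cells of 4T1, a BALB/c mouse mammary carcinoma line grown on plastic in medium with serum.

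Snail and ZEB proteins are zinc finger repressors and Twist1 is a basic helix-loop-helix factor. Snail and ZEB proteins bind E-box sequences in the promoters of epithelial genes such as Cdh1, which encodes E-cadherin, and lower their transcription. Grhl2 (a grainyhead factor), Ovol1 (a zinc finger repressor) and Elf3 (an ETS factor) maintain epithelial transcription, and Grhl2 and Zeb1 repress each other in mammary epithelial cells. Esrp1 and Rbm47 are RNA-binding proteins: Esrp1 directs epithelial splice forms, and Rbm47 binds and stabilises or splices target transcripts and has been described as a suppressor of breast cancer progression.

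On the GRCm38 assembly, in the GENCODE annotation, the EMT factors other than Zeb1 lie at chr2:167538195-167542814 (Snai1, plus strand), chr16:14705852-14709385 (Snai2, plus), chr2:44983632-45117395 (Zeb2, minus) and chr12:33957671-33959829 (Twist1, plus). The gatekeepers lie at chr15:37233036-37363569 (Grhl2, plus), chr19:5549136-5560646 (Ovol1, minus), chr1:135253575-135258568 (Elf3, minus), chr4:11331933-11386783 (Esrp1, minus) and chr5:66016549-66173118 (Rbm47, minus). The tumour cell sums held between 1452 UMIs (Zeb1) and 9491 UMIs (Twist1) of each gene; 3' counting makes levels comparable between samples for 1 gene and not between genes.

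The RefSeq promoter table (build GRCm38.p6, 250 bases before to 50 after each start) held windows for Snai1, Zeb2, Twist1, Elf3 and Rbm47, 10 windows in all for these 5 genes. The E-box CAGGTG, the core recognised by Snail and ZEB proteins, was searched on both strands, where the other strand reads CACCTG. It stood in 1 window of Snai1 and 1 of Elf3 and in none of the windows of Zeb2, Twist1 and Rbm47. Of all 32851 windows, 20.2% held it. Both windows are shown because they are an EMT factor and a gatekeeper whose start regions carry the same letters, printed in capitals. The match begins 126 bases before the Snai1 start and 140 bases before the Elf3 start.
Snai1 (chr2:167537945-167538244, plus strand): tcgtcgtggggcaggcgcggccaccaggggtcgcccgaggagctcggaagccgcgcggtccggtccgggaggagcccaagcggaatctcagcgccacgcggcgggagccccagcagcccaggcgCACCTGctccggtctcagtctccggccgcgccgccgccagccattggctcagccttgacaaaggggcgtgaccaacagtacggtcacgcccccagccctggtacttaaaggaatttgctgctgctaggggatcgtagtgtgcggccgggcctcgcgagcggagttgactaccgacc
Elf3 (chr1:135258423-135258722, minus strand): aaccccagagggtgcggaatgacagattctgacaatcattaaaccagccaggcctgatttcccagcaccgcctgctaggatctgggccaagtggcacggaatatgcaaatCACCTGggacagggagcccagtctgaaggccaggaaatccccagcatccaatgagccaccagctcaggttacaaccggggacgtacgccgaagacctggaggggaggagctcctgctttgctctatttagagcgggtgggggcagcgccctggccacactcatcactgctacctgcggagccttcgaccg

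The table held 7620 cells, of which 6915 were tumour cells by cluster and mouse label. The 6902 of these in the 21 combinations of mouse, matrix and day with at least 20 cells were summed, which left out 13 Matrigel day 5 cells of mouse 1. These 21 sums held between 1785443 and 45966260 UMIs, and the median UMIs per cell was lowest in collagen day 0 of mouse 4 (4180) and highest in Matrigel day 5 of mouse 2 (60985). Day 5 Matrigel was the thinnest group, with 89 cells from 2 mice. Left out were 227 cells of macrophage-like clusters, 75 of a fibroblast-like cluster, 29 with T or NK cell markers, and 61 mouse-labelled cells that clustered with 4T1. In the tumour cells used, the 10 epithelial markers summed to between 4719 and 9204 CPM (UMI counts scaled to a common library total) per mouse. The 8 fibroblast markers summed to medians of 20.3, 30.8 and 36.4 CPM in collagen on days 0, 3 and 5, against 11.1, 11.7 and 17.7 CPM in Matrigel. The 10 macrophage markers had medians of 19.5, 11.6 and 6.88 CPM in collagen, against 16.6, 10.8 and 4.12 CPM in Matrigel. The part of such traces in the results below was not tested beyond the counts without cells that hold a stromal or immune UMI. Of the 3 pools, 11 barcode sequences occurred in more than 1. In sums of cells, a change in the number of expressing cells and a change in RNA per cell cannot be told apart.

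Several of the genes differed widely between mice. Twist1 averaged 72.0 CPM over the sums of mouse 2, 26.7 CPM in mouse 3, 20.7 CPM in mouse 1 and 2.61 CPM in mouse 4. In collagen day 0 it stood at 13, 80.6, 15.4 and 2.32 CPM in mice 1 to 4, and in Matrigel day 0 at 15.8, 96.1, 18.9 and 1.74 CPM, so each mouse kept its place in both gels. Of the spread of Twist1 within groups, on the log2(CPM + 5) scale, 84.5% lay between mice; the share was 75.9% for Elf3, 64.9% for Zeb1 and 9.08% for Esrp1. Elf3 and Zeb1 stood at opposite ends in mouse 4, which had the lowest mean Elf3 of the 4 mice (14.4 CPM, against 25.1 to 29.0 CPM in the others) and the highest mean Zeb1 (11 CPM, against 1.63 to 8.42 CPM). These are levels, given as a description; mouse 4 has no day 5 sums.

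**Figure D1:**
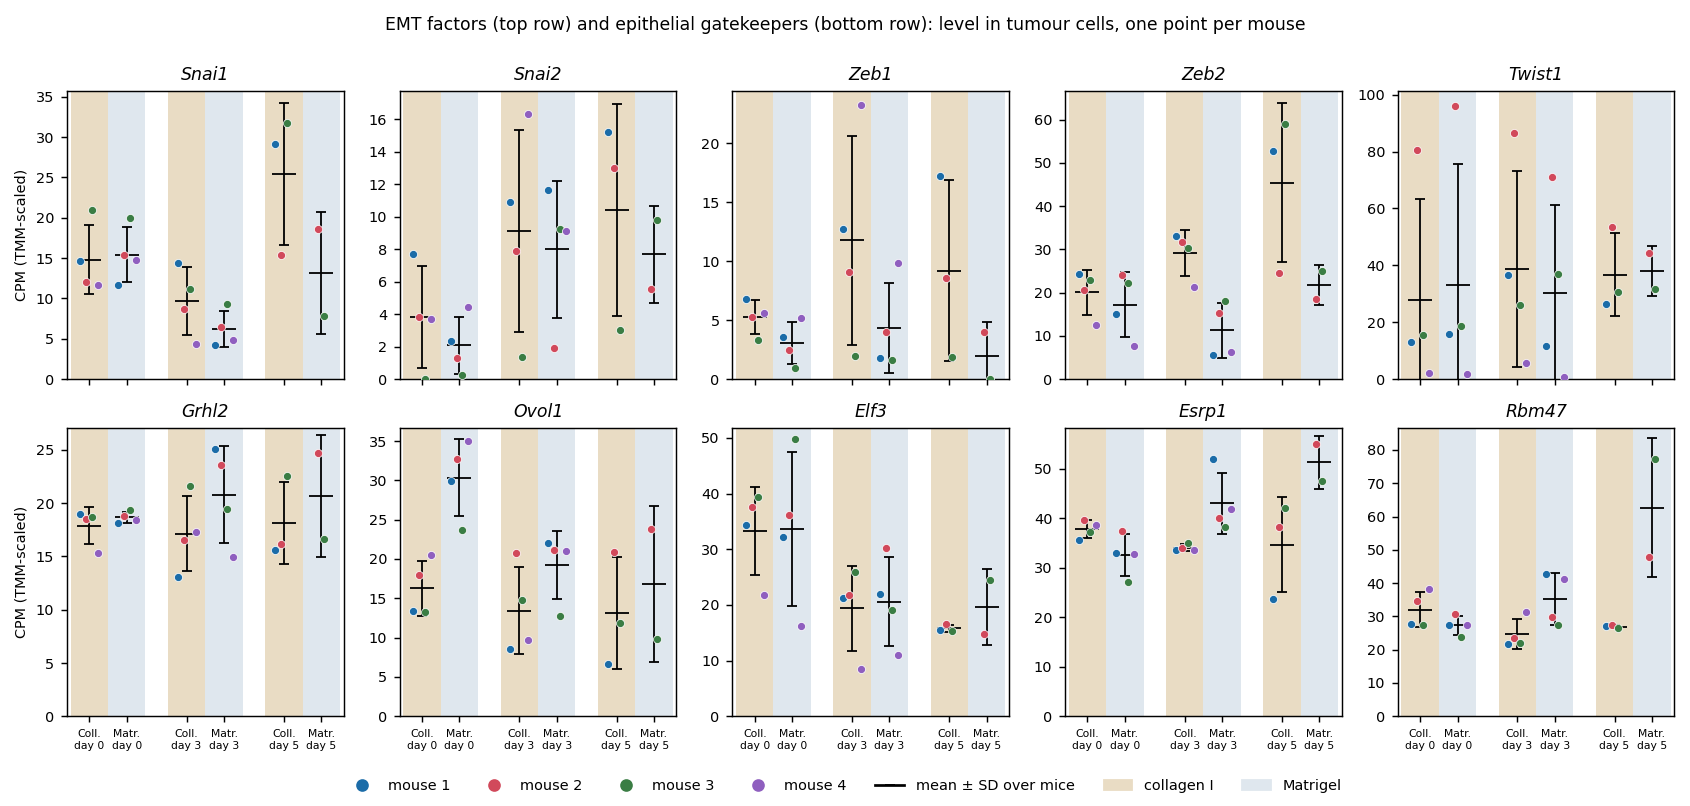
Level of each gene in tumour cells (CPM scaled by TMM, linear axis from 0), collagen I left of Matrigel on each day, one point per mouse with the mean and SD in black (bars below 0 are cut by the axis). Twist1 is highest in mouse 2 in all 6 groups, and Rbm47 reaches 47.9 and 77.4 CPM in Matrigel day 5, above 26.4 to 27.4 CPM in collagen day 5.

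The first question was whether the invasive matrix shifted EMT factors. None of the 5 passed the test in collagen over Matrigel on any day, in edgeR's quasi-likelihood test on the mouse sums with Benjamini-Hochberg adjustment over 13152 genes. Over all genes, 6.46% were called on day 0, 0.266% on day 3 and 0.38% on day 5. DESeq2 called 1 of the 5, Zeb2 on day 3. Of 12869 genes in that DESeq2 comparison, 99 were called as higher in collagen and 67 as lower. Before adjustment, Zeb2 had a p of 0.00229 on day 3 and of 0.0463 on day 5, and the other 4 factors had a p above 0.05 on each day. Zeb2 came closest on day 3: it had 33.2, 31.8, 30.3 and 21.4 CPM in collagen in mice 1 to 4, against 5.50, 15.4, 18.1 and 6.28 CPM in Matrigel. The 2 groups did not overlap, and Zeb2 was higher in collagen in 4 of 4 mice. The share of all genes without overlap in CPM is not given, here or for the comparisons below. The log2 fold change was 1.35 (SE 0.38, adjusted p = 0.189 by edgeR), and with the mouse as a block, which compares each animal with itself, it was 1.31 (SE 0.27, adjusted p = 0.0111, in a fit that called 4.9% of all genes). With all mouse-labelled cells, macrophage-like and fibroblast-like ones included, it was 0.47 (SE 0.40, adjusted p = 0.814 by edgeR).

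On day 5 Zeb2 had 52.8, 24.7 and 59.0 CPM in collagen in mice 1, 2 and 3, against 18.6 and 25.0 CPM in Matrigel in mice 2 and 3. The groups overlapped through mouse 2, and the difference did not pass (log2 fold change 1.07, SE 0.50, adjusted p = 0.423 by edgeR). Zeb1 was higher in collagen in 4 of 4 mice on day 0 and in 4 of 4 mice on day 3, at low levels throughout. It averaged 5.24 ± 1.44 CPM in collagen and 3.06 ± 1.79 CPM in Matrigel on day 0 (SD, n = 4 each), and 11.8 ± 8.86 and 4.32 ± 3.82 CPM on day 3 in collagen and Matrigel. Neither difference passed (adjusted p = 0.611 and 0.689 by edgeR). Snai1 averaged 25.4 ± 8.81 CPM in collagen (n = 3) and 13.2 ± 7.58 CPM in Matrigel (n = 2) on day 5, with an adjusted p of 0.453 by edgeR. These groups overlapped. Snai1 was lower in collagen in mouse 2 (15.34 and 18.55 CPM in collagen and Matrigel) and higher in mouse 3 (31.71 and 7.84 CPM). Snai2, which mammary basal cells are known to express, averaged between 2.08 and 10.4 CPM in the 6 groups, with standard errors of its matrix differences between 0.80 and 1.07 on the log2 scale. In Matrigel day 5 of mouse 3 (9.80 CPM), all 20 Snai2 UMIs came from 1 cell. Twist1 had standard errors of 1.06, 1.04 and 1.37 on days 0, 3 and 5 without the block and of 0.38, 0.37 and 0.47 with it, and neither fit called it. The blocked differences of Twist1 were -0.23, 0.56 and 0.32 on days 0, 3 and 5, and that of day 5 had the opposite sign without the block (-0.05), as had those of Snai2 on day 3 (-0.09 with and 0.18 without the block) and day 5 (-0.22 and 0.44). The median matrix difference of the 5 factors was 0.24 on day 0, 0.67 on day 3 and 0.91 on day 5, beside 0.00 over all genes on each day.

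**Figure D2:**
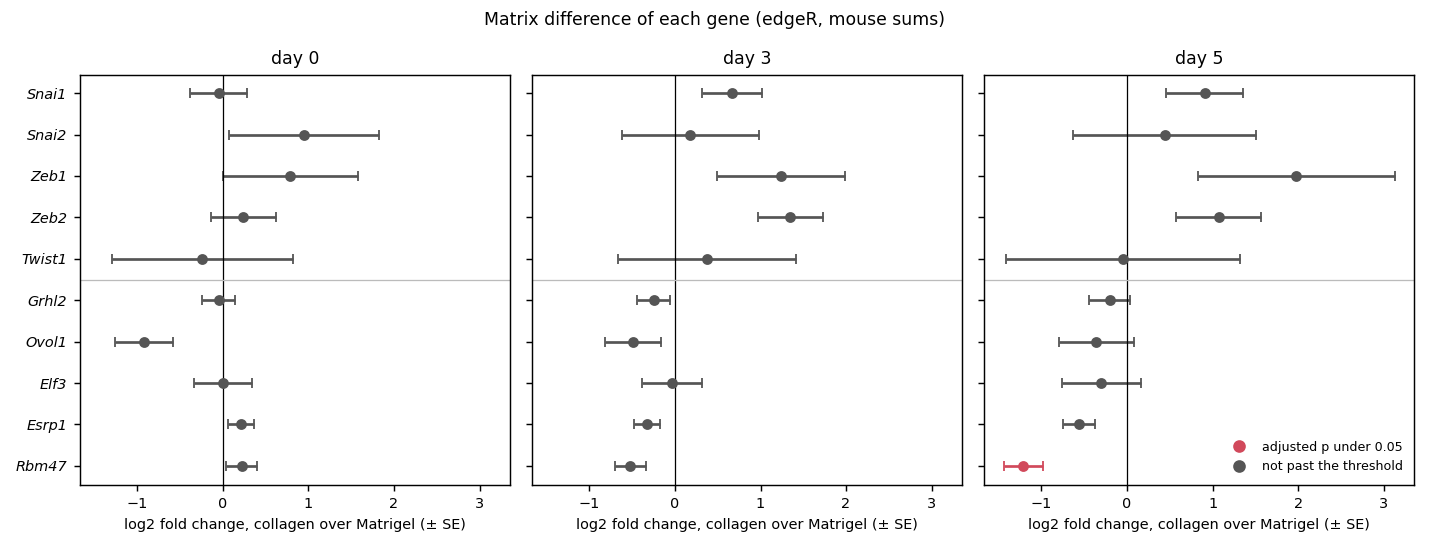
Log2 fold change of each gene in collagen over Matrigel on days 0, 3 and 5, with its SE from edgeR. EMT factors are above the grey line and gatekeepers below it; Rbm47 on day 5 (-1.21) is the point past the adjusted threshold of 0.05.

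Among the gatekeepers, Rbm47 was lower in collagen than in Matrigel on day 5. It had 27.0, 27.4 and 26.4 CPM in collagen in mice 1, 2 and 3, against 47.9 and 77.4 CPM in Matrigel in mice 2 and 3. The groups did not overlap, and collagen was the lower one in both mice with both gels. With 3 and 2 mice, 11.4% of all genes were lower without overlap in the shares of cells at equal depth given below. The log2 fold change was -1.21 (SE 0.23, adjusted p = 0.0272 by edgeR). The call was 1 of 5 gatekeepers in a comparison that called 0.38% of genes in either direction and 0.0836% as lower, and the block kept it (-1.22, SE 0.20, adjusted p = 0.00241 by edgeR, in a fit that called 6.71% of genes). It ended when mouse 1, 2 or 3 was left out (log2 fold changes -1.21, -1.52 and -0.80, adjusted p = 0.178, 0.176 and 0.688 by edgeR). It also ended with at least 50 cells a sum (log2 fold change -0.80, adjusted p = 0.416), with cells thinned to 5000 UMIs (-0.99, adjusted p = 0.411) and with only the groups compared in the fit (-1.20, adjusted p = 0.0894 by edgeR).

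The matrix difference of Rbm47 also changed with time. On day 0 Rbm47 averaged 32.0 ± 5.24 CPM in collagen and 27.3 ± 2.78 CPM in Matrigel (SD, n = 4 each; log2 fold change 0.22, SE 0.18, adjusted p = 0.511 by edgeR). On day 3 it averaged 24.7 ± 4.58 CPM in collagen and 35.3 ± 7.86 CPM in Matrigel and was lower in collagen in 4 of 4 mice, without passing (log2 fold change -0.52, SE 0.18, adjusted p = 0.296 by edgeR). The change of the matrix difference, day 5 minus day 0, was -1.43 (SE 0.29, adjusted p = 0.0259 by edgeR), in a comparison that called 0.996% of genes and 0.563% as lower. This value lost its call without mouse 1, 2 or 3 (-1.50, -1.76 and -1.0, adjusted p = 0.141, 0.186 and 0.445 by edgeR). The same change by day 3 was -0.74 (SE 0.25, adjusted p = 0.313 by edgeR). In that comparison 0.175% of genes and none of the 10 were called; Rbm47 and Esrp1 had an unadjusted p under 0.05 (0.00869 and 0.0215), and none of the 10 was called by DESeq2 or by the blocked fit, which called 5.08% of genes.

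Esrp1 was also lower in collagen than in Matrigel on days 3 and 5, by smaller differences. It had 23.8, 38.2 and 42.0 CPM in collagen day 5 in mice 1, 2 and 3, against 55.0 and 47.5 CPM in Matrigel day 5 in mice 2 and 3. The groups did not overlap, but the difference did not pass (log2 fold change -0.56, SE 0.19, adjusted p = 0.238 by edgeR). On day 3 the 4 collagen values lay between 33.6 and 35 CPM and the 4 Matrigel values between 38.3 and 52.0 CPM, again without overlap and without passing (log2 fold change -0.33, SE 0.15, adjusted p = 0.51 by edgeR). With the mouse as a block, the change of the Esrp1 matrix difference from day 0 to day 5 was called (-0.73, SE 0.24, adjusted p = 0.0494, in a fit that called 13.8% of genes), whereas without the block it was not (-0.77, SE 0.25, adjusted p = 0.131 by edgeR).

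Ovol1 was the gatekeeper that stood apart at the first harvest. On day 0 it had 13.4, 17.9, 13.2 and 20.4 CPM in collagen in mice 1 to 4, against 29.9, 32.7, 23.7 and 35 CPM in Matrigel. All 4 collagen values lay below all 4 Matrigel values. No gatekeeper was called on day 0 or day 3 by edgeR without the block or by DESeq2; at an unadjusted p under 0.05 were Ovol1 on day 0 (0.0131) and Rbm47 and Esrp1 on day 3 (0.00908 and 0.0438). The log2 fold change was -0.92 (SE 0.34, adjusted p = 0.104 by edgeR) and -0.93 with the mouse as a block (SE 0.24, adjusted p = 0.0105, in a fit that called 24.4% of genes). By day 3 the groups overlapped, at 13.4 ± 5.55 CPM in collagen and 19.2 ± 4.34 CPM in Matrigel (SD, n = 4 each). The group means of Grhl2 lay between 17.1 and 20.8 CPM, and its matrix differences were -0.05 on day 0 (SE 0.19), -0.25 on day 3 (SE 0.19) and -0.20 on day 5 (SE 0.24) on the log2 scale. Elf3 had matrix differences of 0.00 (SE 0.34), -0.03 (SE 0.35) and -0.30 (SE 0.46) on the 3 days.

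With time in Matrigel, Snai1 fell and Esrp1 rose between day 0 and day 3. Snai1 had 4.28, 6.47, 9.28 and 4.81 CPM in Matrigel day 3 in mice 1 to 4, against 11.7, 15.4, 19.9 and 14.7 CPM in Matrigel day 0. It fell in 4 of 4 mice without overlap (log2 fold change -1.30, SE 0.35, adjusted p = 0.00704 by edgeR), and all 16 alternative settings kept the call. Esrp1 had 52.0, 40.0, 38.3 and 41.9 CPM in Matrigel day 3, against 33.0, 37.4, 27.2 and 32.8 CPM in Matrigel day 0. Its log2 fold change was 0.39 (SE 0.15, adjusted p = 0.0473 by edgeR), close to the threshold, and 3 of 16 alternatives kept the call. Leaving out any mouse ended it (adjusted p = 0.15, 0.0889, 0.208 and 0.111 without mouse 1, 2, 3 and 4 by edgeR). These 2 calls among 10 genes stand in a comparison that called 39.6% of all genes, 19.1% as lower and 20.5% as higher, so the count of members is below the background share. The same step in collagen called none of the 10, by edgeR or DESeq2, where 20.4% of genes were called; at an unadjusted p under 0.05 were Elf3 (0.0386) and Rbm47 (0.0484). There Snai1 averaged 9.67 ± 4.22 CPM on day 3 and 14.8 ± 4.30 CPM on day 0 (SD, n = 4 each; log2 fold change -0.58, SE 0.33, adjusted p = 0.239 by edgeR), and the difference between the 2 gels in this step did not pass (0.72, SE 0.48, adjusted p = 0.687 by edgeR).

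The mouse block added calls in this step, in fits that called 55.9% of genes in Matrigel and 39.9% in collagen. Elf3 averaged 20.6 ± 7.93 CPM on day 3 and 33.6 ± 13.8 CPM on day 0 in Matrigel, and 19.4 ± 7.55 and 33.3 ± 7.92 CPM on the same days in collagen, lower on day 3 in 4 of 4 mice in both gels. The blocked log2 fold changes were -0.67 (SE 0.16, adjusted p = 0.00219 by edgeR) and -0.80 (SE 0.16, adjusted p = 0.000888), beside unblocked adjusted p of 0.105 and 0.125. In Matrigel the block also called Snai2 (2.16, SE 0.68, adjusted p = 0.0117 by edgeR) and Ovol1 (-0.72, SE 0.24, adjusted p = 0.0159), whose unblocked adjusted p were 0.0863 and 0.119.

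From day 3 to day 5 no member passed in edgeR without the block, where 0.996% of genes were called in collagen and 2.11% in Matrigel. At an unadjusted p under 0.05, Snai1 was past it in both gels (0.000934 in collagen and 0.0209 in Matrigel) and Rbm47 in Matrigel (0.00113). DESeq2 called Snai1 in collagen and Rbm47 in Matrigel. Over all genes it called 190 as higher and 237 as lower of 12869 in collagen. In Matrigel it called 240 as higher and 243 as lower of 13119. Snai1 had 29.2, 15.3 and 31.7 CPM in collagen day 5 in mice 1, 2 and 3, against 14.4, 8.69, 11.2 and 4.40 CPM in collagen day 3 in mice 1 to 4. The day 5 values all lay above the day 3 values (log2 fold change 1.34, SE 0.34, adjusted p = 0.0672 by edgeR), and the blocked fit called it (1.21, SE 0.28, adjusted p = 0.00922, with 11% of genes called). Rbm47 in Matrigel averaged 62.7 ± 20.8 CPM on day 5 (n = 2) and 35.3 ± 7.86 CPM on day 3 (n = 4), with a log2 fold change of 0.83 (SE 0.22, adjusted p = 0.0515 by edgeR) and of 0.94 with the block (SE 0.20, adjusted p = 0.00524, with 13.2% of genes called). Without mouse 3 it was 0.35 (adjusted p = 0.726 by edgeR), and with at least 50 cells a sum 0.52 (adjusted p = 0.504). In collagen Rbm47 averaged 27 ± 0.498 CPM on day 5 (n = 3) and 24.7 ± 4.58 CPM on day 3 (n = 4), with a log2 fold change of 0.14 (SE 0.19, adjusted p = 0.855 by edgeR).

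The 4T1 cells, prepared separately and added to every pool, give a value of how the pools themselves differed. Their Snai1 level, in CPM without TMM scaling, was 9.78 CPM on day 0 (exact 95% Poisson interval 7.74 to 12.2), 3.52 on day 3 (2.6 to 4.67) and 8.63 on day 5 (5.47 to 12.9). Snai1 was thus lowest in the day 3 pool also in cells that were in neither gel, below both day 0 and day 5. Their Rbm47 level was 24.0 CPM on day 0 (20.7 to 27.6), 10.4 on day 3 (8.77 to 12.3) and 25.5 on day 5 (19.8 to 32.3). From day 0 to day 3 the mean of tumour cells also fell in collagen (32.0 to 24.7 CPM). In Matrigel it rose instead (27.3 to 35.3 CPM). Their Esrp1 level was 11.8 on day 0 (9.51 to 14.4), 16.6 on day 3 (14.6 to 19.0) and 16.9 on day 5 (12.3 to 22.6). It was higher after day 0 as in the Matrigel tumour cells, and unlike the collagen ones (37.8 CPM on day 0 and 34.1 CPM on day 3). The intervals cover counting error only, since each pool held 1 preparation of the line. The part of pool differences in the steps between days was not tested; the matrix comparisons are made within a pool.

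Since most of these genes give few UMIs per cell, the share of cells with at least 1 UMI was taken after each cell was thinned to 5000 UMIs, leaving out shallower cells. On day 0 this left out 226 of 913 collagen cells and 328 of 1685 Matrigel cells. On day 3 it left out 29 of 2468 collagen cells and 38 of 686 Matrigel cells, and on day 5 it left out 6 of 1061 collagen cells and 1 of 89 Matrigel cells. Thinning mattered: Rbm47 was seen in 66.5 ± 0.762% of collagen day 5 cells and 84.6 ± 3.17% of Matrigel day 5 cells without it, and in 13.6 ± 3.54% and 26.4 ± 12.4% with it. On day 0 the Ovol1 share was 6.91 ± 2.47% in collagen and 12.2 ± 1.76% in Matrigel (SD, n = 4 each), and every collagen value lay below every Matrigel value. It was the single member of 10 whose groups did not overlap on that day, where 3.14% of genes were lower and 5.65% higher in this way; without thinning the groups overlapped (18.1% and 29.8%).

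On day 3 no member's shares separated the gels, where 2.36% of genes were higher and 1.16% lower in collagen without overlap. Zeb2 was detected in 12.6, 11.7, 12.5 and 4.42% of collagen cells in mice 1 to 4, against 2.27, 7.04, 4.85 and 3.34% of Matrigel cells, higher in collagen in 4 of 4 mice. Rbm47 was detected in 9.0, 9.36, 8.82 and 6.19% of collagen cells, against 9.09, 16.9, 11.7 and 16.4% of Matrigel cells, lower in collagen in 4 of 4 mice by a mean of 5.18 points. Without thinning, Zeb2 (37.9 ± 5.36 and 19.5 ± 7.39% in collagen and Matrigel) and Esrp1 (56.0 ± 4.95 and 69.6 ± 4.86%) did not overlap on day 3. The share of all genes without overlap is not given for cells without thinning, so these 2 have no background to be set against.

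On day 5, where the groups hold 3 and 2 mice and 19.3% of genes were higher and 11.4% lower without overlap, 4 of the 10 members did not overlap. The Rbm47 share was 17.2, 13.5 and 10.1% in collagen in mice 1, 2 and 3, against 17.6 and 35.1% in Matrigel in mice 2 and 3. Mouse 1 in collagen and mouse 2 in Matrigel lie next to each other. The Esrp1 share was 14.7 ± 4.00% in collagen and 20.2 ± 1.87% in Matrigel. Zeb2 was detected in 15.8 ± 6.16% of collagen cells and 5.27 ± 3.64% of Matrigel cells, and Zeb1 in 4.14 ± 3.67% of collagen cells and in 0 of 51 and 0 of 37 Matrigel cells, a count of 0 that allows shares of up to 5.88% and 8.11% (3 counts per library). With the share expected over all draws in place of 1 draw, Zeb1 (3.8 and 1.11% in collagen and Matrigel) and Zeb2 (15.6 and 8.36%) overlapped, while Rbm47 (13.3 and 26.1%) and Esrp1 kept apart.

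**Figure D3:**
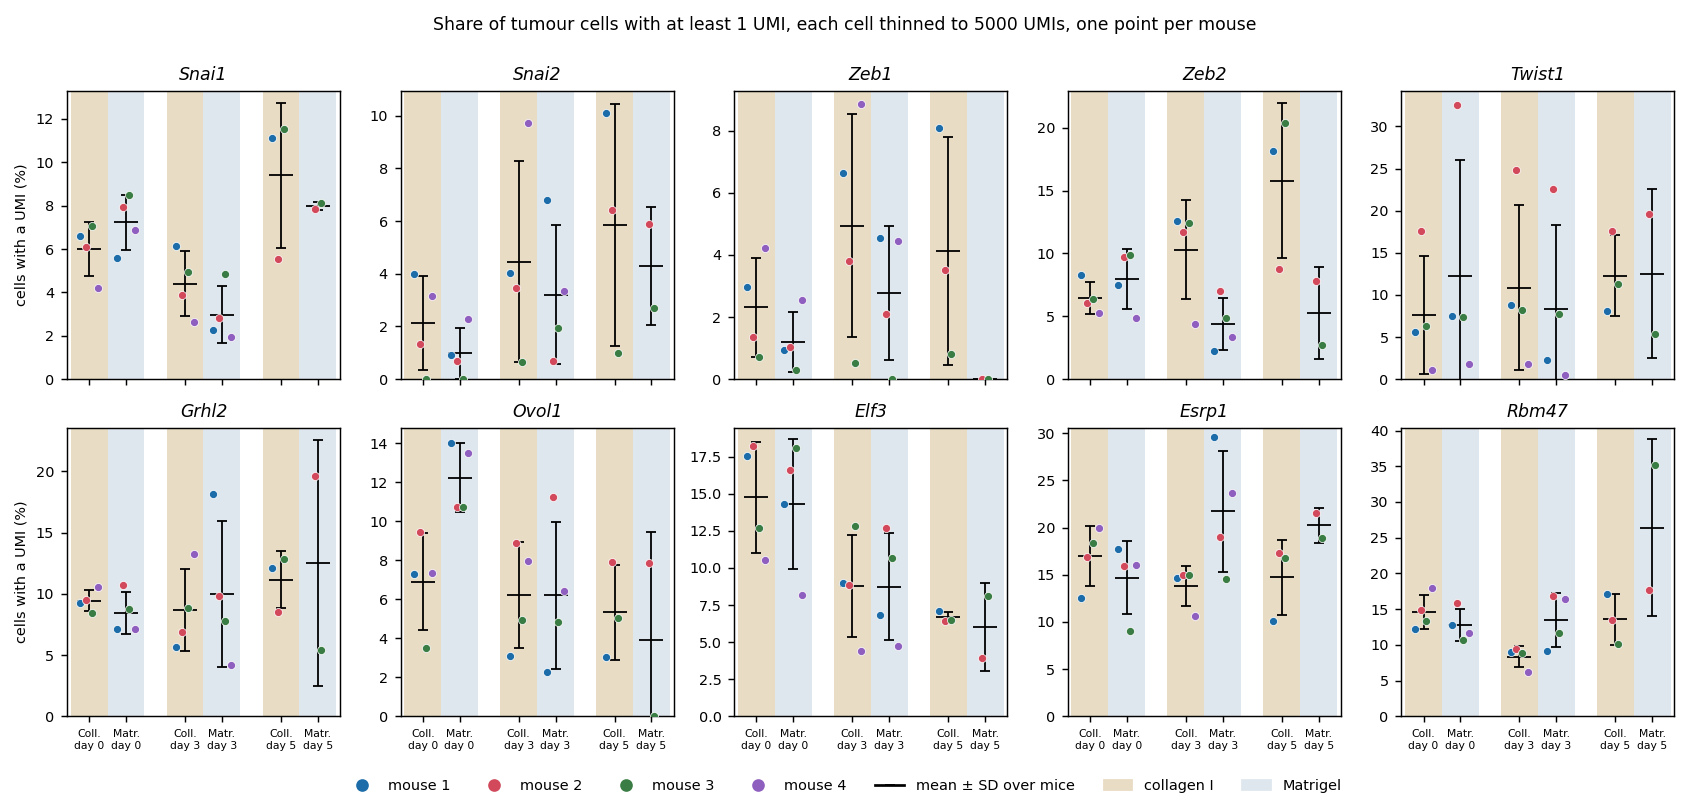
Share of tumour cells with at least 1 UMI of each gene, each cell thinned to 5000 UMIs (percent, axis from 0), collagen I left of Matrigel on each day, one point per mouse with the mean and SD in black. Ovol1 is lower in collagen on day 0 in all 4 mice (means 6.91 and 12.2% in collagen and Matrigel), and the 2 Matrigel day 5 points of Rbm47 are 17.6 and 35.1%.

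The 10 genes were not spread evenly over the tumour cells. Cells were clustered on variable genes with these 10 left out, which gave 21 tumour cell clusters; levels within clusters are CPM without TMM scaling. Cluster 7 (421 cells, 397 of them from collagen, led by BC100530, Stfa3 and Cxcl3) held 29.9% of all Zeb2 UMIs, 20.2% of Snai1 and 18.8% of Zeb1, against 7.51% of all UMIs. Its Zeb2 level was 116 and its Snai1 level 39.2, whereas Grhl2 (5.38), Ovol1 (5.33) and Esrp1 (10.3) were low. The pattern was shared by its 3 main mice: Zeb2 stood at 87.1, 127 and 115 CPM in mice 1, 2 and 3, and Esrp1 at 11.9, 6.61 and 13.8. Cluster 7 made up 15.4 ± 5.00% of cells in collagen day 5 (n = 3) and 1.96 ± 2.77% in Matrigel day 5 (n = 2), and 7.03 ± 3.50 and 2.34 ± 1.38% on day 3 in collagen and Matrigel (n = 4 each). Its 8 fibroblast markers summed to 75.9 CPM, against 5610 in the fibroblast-like cluster, its 10 epithelial markers to 2060, against 318 there, and its 4 measured neutrophil markers to 437. The part of these traces in its Zeb2 level was not tested.

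Leaving cluster 7 out of the sums lowered Zeb2 in both gels. On day 3 Zeb2 was then 20.6 ± 4.08 CPM, unscaled, in collagen and 8.77 ± 4.75 in Matrigel, against 27.2 ± 3.69 and 10.3 ± 5.47 with it (SD, n = 4 each). The lowest collagen mouse (17.0) still lay above the highest Matrigel mouse (14.1).

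Snai2 had its own cell group. Cluster 13 (290 cells, led by the basal keratin Krt5 and the smooth muscle genes Acta2 and Tagln) held 59.2% of Snai2 UMIs and 5.05% of all UMIs. Snai2 stood there at 79.1, 67.9 and 89.5 CPM in mice 1, 2 and 3, while Zeb1 (1.01), Zeb2 (1.35), Elf3 (2.45) and Rbm47 (8.09) were low and Grhl2 (18.4) and Esrp1 (32.3) were not. Outside it, Snai2 had no UMI in the 40 and 37 cells left in Matrigel day 5 in mice 2 and 3. Twist1 was highest in cluster 10 (148; Ldhb, Ppfibp1, Med21), of whose 384 cells 94.8% came from mouse 2, and Ovol1 in cluster 21 (122; led by the cornified envelope genes Crct1, Sprr1a and Lce3c). Elf3 was highest in cluster 6 (105; led by the heat shock genes Hspa1a and Hspa1b), whose cells had a median of 8098 UMIs.

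Rbm47 and Esrp1 peaked together in cluster 14 (271 cells, led by Igfbp5, Trf and the casein gene Csn1s1), at 62.4 and 60.1 CPM. This cluster was 10.6 ± 5.92% of cells in collagen day 5 (n = 3) and 25.5 and 76.3% in Matrigel day 5 in mice 2 and 3. Without it the collagen day 5 sums had 24.6, 27.2 and 22.7 CPM of Rbm47, and mouse 2 in Matrigel, the 1 sum with at least 20 cells left, had 36.2. Inside the cluster on day 5, Rbm47 stood at 53.1, 56.0 and 56.6 CPM in collagen in mice 1, 2 and 3, against 82.2 and 90.1 in Matrigel in mice 2 and 3. The 2 sets of values did not overlap there either, on 13 and 29 Matrigel cells. Inside it Esrp1 stood at 44.9, 76.2 and 63.8 in collagen and 81.0 and 56.0 in Matrigel, which overlap.

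**Figure D4:**
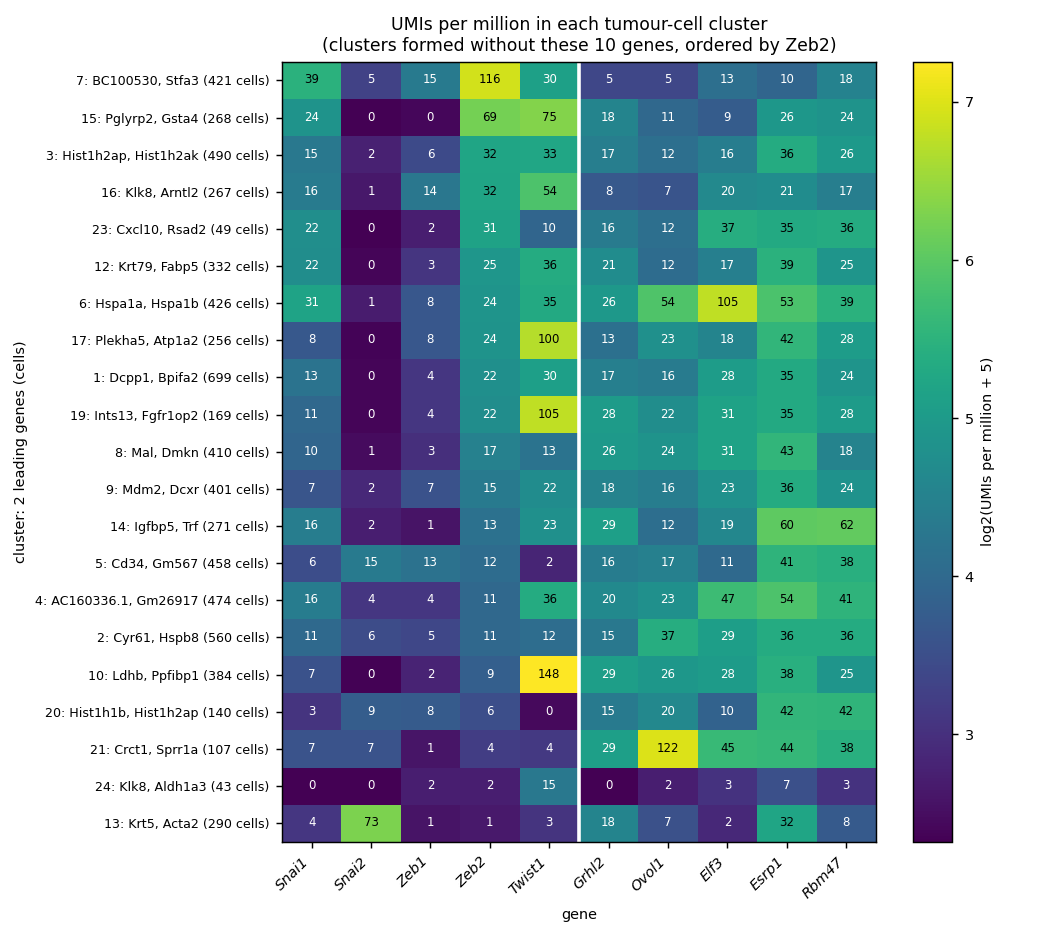
CPM of each gene (printed in each cell, colour on a log2 scale) in the 21 tumour cell clusters, which were formed without these 10 genes and are ordered by Zeb2 from the top. Cluster 7 at the top has 116 for Zeb2 and 39 for Snai1 with 5 for Grhl2 and for Ovol1, and cluster 13 at the bottom has 73 for Snai2.

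Across the 17 clusters of at least 100 cells and without few UMIs, Snai1 and Zeb2 had a like order (Pearson r = 0.88 on log2(CPM + 5)), as did Grhl2 and Esrp1 (r = 0.76) and Ovol1 and Elf3 (r = 0.68). The lowest of the 45 values were those of Zeb1 and Grhl2 (r = -0.80), Snai2 and Twist1 (-0.73), Zeb2 and Esrp1 (-0.68), Snai2 and Elf3 (-0.61), Snai1 and Esrp1 (-0.59) and Snai2 and Zeb2 (-0.56). These are descriptions over 17 points that share mice and pools, and several clusters belong mostly to 1 mouse.

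Single cells gave the same order between Zeb2 and 3 gatekeepers. Thinned tumour cells with a Zeb2 UMI were set against those without one in each of the 9 sums that held at least 20 such cells (549 cells from 3 mice). Esrp1 was lower in the Zeb2-positive cells in 8 of 9 sums, with medians of 16 and 35.4 CPM in cells with and without Zeb2. Grhl2 (14.3 and 19.5) and Ovol1 (8.0 and 20.5) were also lower in 8 of 9, and Elf3 (20.8 and 28.4) in 7 of 9. Rbm47 was lower in 4 of 9 and higher in 5 of 9, and Snai1 was higher in 7 of 9 (34.3 and 12.5). The summed fibroblast markers had medians of 57.1 CPM in cells with Zeb2 and 17.3 in cells without, the epithelial markers 6040 and 8620, and the macrophage markers 7.52 and 11.3. In cells without a UMI of 10 stromal and immune genes, Esrp1 was lower in 6 of 6 sums (23.2 and 38.3) and Grhl2 and Ovol1 in 5 of 6. Snai1 was higher there in 4 of 6 (26.4 and 11.1). Without cluster 7, Esrp1 was lower in 6 of 8 and Grhl2 and Ovol1 in 7 of 8, and Snai1 was higher in 5 of 8 (25.4 and 12.3). Cells with a Snai1 UMI (279 cells, 8 sums) had lower Grhl2 in 6 of 8 (11.7 and 19.5) and higher Esrp1 in 7 of 8 (42.5 and 33.6), the opposite sign to the value of this pair across clusters. Cells with a Twist1 UMI, which come from 10 sums, had Esrp1 at 30.5 and cells without at 38.8, lower in 6 of 10, and Grhl2 lower in 4 of 10.

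**Figure D5:**
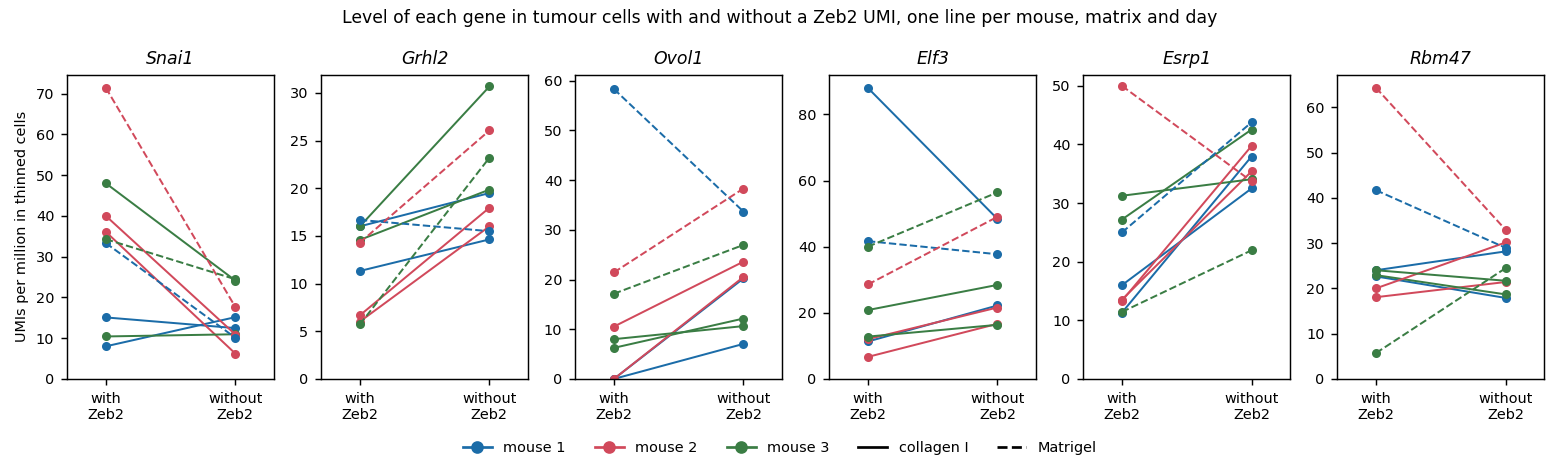
CPM of Snai1 and the 5 gatekeepers in thinned tumour cells with (left) and without (right) a Zeb2 UMI (linear axes from 0), one line per mouse, matrix and day for the 9 sums with at least 20 Zeb2-positive cells. Esrp1, Grhl2 and Ovol1 are lower in the cells with Zeb2 in 8 of 9 lines each.

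Levels in the other cells of the pools are given for comparison. In the macrophage-like cells Zeb2 stood at 486 CPM (exact 95% Poisson interval 463 to 510) and Rbm47 at 65.9 (57.6 to 75.1), while Esrp1 (1.46), Grhl2 (0.875), Ovol1 (1.46), Elf3 (0.583) and Snai1 (1.46) were near 0 and Snai2 had no UMI. At equal depth Esrp1 was seen in 1.04% of macrophage-like cells, and in 9.04 to 29.5% of tumour cells per mouse, gel and day. The fibroblast-like cells held all 5 EMT factors, with Zeb2 at 188, Twist1 at 77.2, Zeb1 at 69.5, Snai1 at 35.5 and Snai2 at 20.6, and each gatekeeper at 2.57 or less. The 4T1 cells had Twist1 at 50.6 and Zeb2 at 37.4, Zeb1 at 0.615 and Snai2 at 0.123, with Esrp1 at 15.1, Grhl2 at 8.73 and Ovol1 at 1.64. No test is given for these, since they are single populations.

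Over the 21 sums, the genes most like each member were taken among 6042 genes of at least 20 CPM, by Pearson r on log2(CPM + 5), for Rbm47, Zeb2, Snai1 and Esrp1. Rbm47 was most like Nfib (r = 0.844), Irx1 (0.832) and Irx2 (0.812) and least like Cd44 (-0.914), Tpst2 (-0.905) and Capn2 (-0.861). Zeb2 was most like Serpine2 (0.85), Ptgfrn (0.835) and Frmd4a (0.817) and least like Marveld3 (-0.853), a tight junction protein, Cryab (-0.803) and Hook1 (-0.788). Snai1 was most like Ackr3 (0.87), Cdk17 (0.832) and Uba1 (0.794) and least like Saysd1 (-0.806), Triap1 (-0.794) and the claudin Cldn3 (-0.787). Esrp1 was most like Epb41 (0.745), Cyb561 (0.745) and Chchd10 (0.684) and least like Cd63 (-0.776), Ell2 (-0.711) and Wwtr1 (-0.692). The sums share mice and pools, and the values are descriptions.

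Around the 10 members, 5 lists of genes were followed in the same fits. Of 19 tested mesenchymal targets, 3 were higher in collagen than in Matrigel on day 0 (Lgals1, Fbn1 and Mmp14), 3 on day 3 (Postn, Bgn and Tagln) and 1 on day 5 (Itga5), and none was lower, by edgeR at an adjusted p under 0.05. Of all genes, 6.46, 0.266 and 0.38% were called on these days. Their median log2 fold changes were 0.66, 1.20 and 1.98, beside 0.00 over all genes, and no gene of any list was called on all 3 days. Fbn1 was low on day 0, at 5.05 ± 4.2 CPM in collagen and 0.653 ± 0.294 CPM in Matrigel (SD, n = 4 each). Its groups overlapped, and it was higher in collagen in 3 of 4 mice. Postn, a matricellular protein, averaged 39.9 ± 22.2 CPM in collagen day 3 and 1.4 ± 0.715 CPM in Matrigel day 3 (SD, n = 4 each; log2 fold change 5.01, SE 0.93, adjusted p = 0.0289 by edgeR). Itga5, a subunit of the fibronectin receptor, averaged 19.6 ± 3.45 CPM in collagen day 5 (n = 3) and 2.31 ± 0.202 CPM in Matrigel day 5 (n = 2; log2 fold change 3.09, SE 0.52, adjusted p = 0.0143 by edgeR). With the block, 6, 11 and 12 of the 19 were higher and none lower, in fits that called 24.4, 4.9 and 6.71% of all genes. In cells without a stromal or immune UMI the counts were 3, 0 and 1. There the day 3 log2 fold changes were 4.61 for Postn (SE 1.1, adjusted p = 0.143 by edgeR), 1.93 for Bgn (SE 0.54, adjusted p = 0.197) and 5.98 for Tagln (SE 1.38, adjusted p = 0.119), against 5.01, 3.05 and 5.44 in all tumour cells, and 12 genes in all were called, against 35. Fibroblasts also express several of these genes, and Tagln and Postn were among the leading genes of tumour cluster 13. That cluster made up 4.92 ± 3.93% of collagen cells and 2.37 ± 1.97% of Matrigel cells on day 3 (SD, n = 4 each). The part of fibroblast RNA or of cluster 13 in these values was not tested.

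Of 24 tested epithelial targets none was called in any matrix comparison by edgeR; 3, 3 and 9 had an unadjusted p under 0.05, DESeq2 called 0, 2 and 1 as lower, and the block 4, 3 and 6 as lower, in the fits that called 24.4, 4.9 and 6.71% of all genes. The day 0 count is below that share. Their medians were -0.18, -0.19 and -0.42. Of 15 other gatekeepers none was called between the gels by edgeR, with medians of -0.04, -0.24 and -0.40. At an unadjusted p under 0.05 were 1, 3 and 7, in either direction. DESeq2 called 0, 0 and 1, the last as higher in collagen. Of 13119, 12869 and 12616 genes on days 0, 3 and 5, DESeq2 called 682, 99 and 165 as higher. It called 663, 67 and 93 as lower. The block called 3, 2 and 5 of the 15, of which 2, 1 and 1 were higher in collagen and 1, 1 and 4 lower. Of 14 tested other EMT factors, 1 was called on day 0, a share near the 6.46% of all genes. It was Tcf3 (E2A), higher in collagen at 73.4 ± 10.4 CPM, against 49.4 ± 8.44 CPM in Matrigel (SD, n = 4 each; log2 fold change 0.58, SE 0.16, adjusted p = 0.0365 by edgeR). In cells without a stromal or immune UMI, Tcf3 was not called (0.56, SE 0.17, adjusted p = 0.0641 by edgeR). The block called 4 and 1 of the 14 as higher on days 0 and 3 and 1 as lower on day 5, beside 24.4, 4.9 and 6.71% of all genes. Of 16 genes of the TGF-beta input, Smad7, an inhibitory Smad, was called on day 5, at 116 ± 27.4 CPM in collagen (n = 3) and 36.9 ± 13.4 CPM in Matrigel (n = 2; log2 fold change 1.64, SE 0.27, adjusted p = 0.0125 by edgeR). At an unadjusted p under 0.05 by edgeR were 3, 6 and 5 of the 16 on days 0, 3 and 5. DESeq2 called 1 as higher and 1 as lower on each day. With the block, 1, 2 and 2 were higher and 4, 3 and 2 lower, beside 24.4, 4.9 and 6.71% of all genes. The change of the matrix difference from day 0 to day 5 was called for Smad7 (1.73) and Itga5 (2.71), where 0.996% of all genes were called. In cells without a stromal or immune UMI, 1 gene of the TGF-beta input was called as higher in this comparison and 0 mesenchymal targets, so Itga5 lost its call.

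From day 0 to day 3 in Matrigel, where 39.6% of all genes were called, 6 of the 16 TGF-beta input genes fell, with Tgif1 (-1.20), Smad7 (-1.11), Skil (-0.96) and Smad3 (-1.04) at the smallest p, and 1 rose. Of the mesenchymal targets 5 fell and 2 rose, with Lgals1 (2.74) and Vim (1.36) up and Postn (-4.15) down. Of the epithelial targets 4 rose and 2 fell; Rab25 (1.53), Cldn3 (1.21) and Ap1m2 (0.78) were up and Epcam (-0.57) down. Cdh1, named here after its values were seen because it is the classical target of Snail and ZEB proteins, fell to 68.5 ± 17.6 CPM in Matrigel day 3, against 130 ± 46.3 CPM in Matrigel day 0 (SD, n = 4 each; log2 fold change -0.92, SE 0.29, adjusted p = 0.0157 by edgeR), in the same step in which Snai1 fell. Among other gatekeepers Mta3 (0.94), Elf5 (3.44) and Esrp2 (0.72) rose and Klf4 (-1.68) fell, and among other EMT factors Prrx2 (2.63) rose and Zfp281 (-0.77) and Sox4 (-0.63) fell. The groups of Vim, Cldn3, Cdh1, Mta3, Elf5, Esrp2, Prrx2 and Sox4 overlapped. Vim and Cldn3 rose and Cdh1 fell in 4 of 4 mice, and Esrp2 and Prrx2 rose in 3 of 4 mice. Elf5 stood at 30.2 ± 30.4 CPM on day 3 and 2.6 ± 1.84 CPM on day 0, and Prrx2 at 5.9 ± 5.58 and 0.956 ± 0.412 CPM (SD, n = 4 each).

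In collagen over the same days, where 20.4% of genes were called, Skil (-0.89), Id2 (-1.65), Tgif1 (-0.63) and Tgfb2 (-1.33) fell and none of the 16 rose. Lgals1 (2.23), Vim (2.12) and Cdh11 (2.42) rose, Prss8 (0.86), Rab25 (0.84) and Cldn3 (0.97) rose, and Spint1 (-0.58) fell. Cdh11 was low on both days, at 1.77 ± 0.319 CPM on day 3 and 0.279 ± 0.331 CPM on day 0 (SD, n = 4 each). The groups of Vim, Rab25 and Spint1 overlapped. From day 3 to day 5, S100a4 (1.38) rose in collagen, and in Matrigel Tcf3 (0.94) rose and Smad7 (-1.02) and Itga5 (-2.13) fell.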

How the data were processed

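The deposited matrix gives UMI counts per gene and cell, which the authors made with Cell Ranger 3.0.2 on GRCm38, with Scanpy 1.4.4 also named, per the submitters' processing notes (filters: not given in the sources used here). A deposited cell annotation by the authors gives pool, mouse, matrix and the mitochondrial fraction of each cell. Its first pool is labelled D1 and was taken as the day 0 harvest by inference, since it is the pool left once days 3 and 5 are matched. No unmatched columns of other samples were used.

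Cells were clustered in Scanpy 1.11.5 without the 10 genes (totals scaled to 10000, 2000 variable genes, 30 components, 15 neighbours, Leiden resolution 1). No doublet caller was run, so doublets were not removed beyond what the deposited annotation had done. UMIs were summed per mouse, gel and day (at least 20 cells, 21 sums, 13152 genes after filterByExpr), scaled by TMM and tested with edgeR 4.0.16 (quasi-likelihood, all 6 groups in 1 fit, Benjamini-Hochberg over all genes, called at an adjusted p under 0.05) in R 4.3.3. DESeq2 1.42.0, other scalings, filters and cell sets, a mouse block and leaving out each mouse were the alternatives. The fit was tested on simulated data. Replicates are mice, 4 animals in all. Without the block, p-values measure the spread between the sums of a group, and sums of the same mouse were treated as independent. With the block, the level of each mouse is taken out, and p-values measure the spread that is left.

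The same mice gave cells to both gels and to the 3 days, so the numbers pair the sums: deviations from the group means had a median correlation of 0.429 between sums of the same mouse (0.038 to 0.772) and -0.123 between other mice. The blocked value stands beside a result where it changes the call. No pair of replicates was a copy (chi-square per degree of freedom 7.59 to 68.6 over 28 pairs). Shares use cells thinned to 5000 UMIs by 1 seeded draw and have no p. Intervals and limits on counts of 0 cover counting error only.

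The 10 genes and the gene lists were chosen with earlier results of these data known. All 10 are named; of each list, up to 4 called genes of smallest p, and for likeness the 3 highest and 3 lowest r for up to 4 members. A gene of the mesenchymal list that this rule would name is not reported here.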

Additional observations from a re-analysis of the deposited data

Results flagged for a closer look

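In 40 groups of 4 mice (10 genes in 4 groups), 3 held a mouse that stood far from the others; chance gives about 1 in 20 groups. Twist1 in collagen day 0 was 80.6 CPM in mouse 2 and 2.32 to 15.4 CPM in the other mice. Grhl2 in collagen day 0 was 15.3 CPM in mouse 4 and 18.5 to 19.0 CPM in the others. Ovol1 in Matrigel day 3 was 12.8 CPM in mouse 3 and 21 to 22 CPM in the others. The matrix difference of Rbm47 differed between days by the interaction test, at -1.43 on the log2 scale for day 5 minus day 0 (SE 0.29, adjusted p = 0.0259 by edgeR), with 1 mouse fewer in collagen and 2 fewer in Matrigel on day 5.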

How the results depend on the processing

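The count of members called changed as follows, with the edgeR count without a block in brackets. With the replicate block (mouse), 1 (0) was called in collagen over Matrigel on day 0 and 1 (0) on day 3, 1 (0) from day 0 to 3 and 1 (0) from day 3 to 5 in collagen, 5 (2) from day 0 to 3 and 1 (0) from day 3 to 5 in Matrigel, and 2 (1) in the change of the matrix difference by day 5. The block gave the count of day 5 between gels (1) and of the change by day 3 (0) as before. With DESeq2, 1 (0) was called between gels on day 3, 1 (0) from day 3 to 5 in each gel, and 1 (2) from day 0 to 3 in Matrigel. Collagen over Matrigel on day 5 had 0 (1) called with only the groups compared, with at least 50 cells a sum and with thinned cells; the change by day 5 had 0 (1) with at least 50 cells and with thinned cells. From day 0 to 3 in Matrigel, 1 (2) was called with RLE scaling, no filter on low counts, at least 10 or 50 cells, without the clusters of few UMIs, and without cells with a stromal or immune UMI, a setting chosen after seeing the data that also called 1 (0) from day 0 to 3 in collagen and 1 (0) from day 3 to 5 in Matrigel. That last step also had 1 (0) with at least 10 cells, all mouse-labelled cells, cells of the 4T1 cluster added, or the clusters of few UMIs left out. Leaving out 1 mouse gave 0 to 1 between gels on day 5, in the change by day 5, from day 0 to 3 in collagen and from day 3 to 5 in Matrigel, and 1 to 2 from day 0 to 3 in Matrigel. Of 1440 fold changes (10 genes, 9 comparisons, 16 alternatives), 83 had the opposite sign, 8 of them with the block, and 0 of the 83 were called with or without the alternative. Outside the leave-one-out settings, 163 share differences kept within 1 SD of their value and 47 moved by more, with the SD between mice pooled over both gels. The cause of these changes was not tested. Depth limits Zeb1 and Snai2 in Matrigel day 5, with 51 and 38 cells.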
